A study of Mus musculus with 8 samples.

Results

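The genes that move finished mRNA out of the nucleus were compared between *Tra2b-cPEko* and wild type testes collected 12 days after birth (P12). Members were the rows of the count tables whose symbol is *Nxf1*, *Nxf2*, *Nxf7*, *Nxt1*, *Nxt2*, *Alyref*, *Thoc1*, *Thoc2*, *Ddx39a* or *Ddx39b*. All 10 were found among 40840 genes, and 9 of them were among the 19104 genes with enough reads to test. The exception was *Nxf7*. RNAseq was done on whole testes from 4 mice of each genotype, with replicates lettered A to D, on a C57BL/6J background. The mice called wild type carried 1 floxed and 1 normal allele of the *Tra2b* poison exon, a noncoding exon whose inclusion ends the reading frame, and no Cre is named for them. The *Tra2b-cPEko* mice carried 1 floxed and 1 deleted allele together with *Vasa-Cre*, a transgene active in germ cells. Deletion by this Cre is limited to germ cells, while RNA of the somatic cells is part of every value given here. In somatic cells the floxed allele stays intact, but those of *Tra2b-cPEko* mice also carry the deleted allele, inherited through the father's sperm.

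Export of mRNA begins while the transcript is still being made. The TREX complex, built from the THO subunits, a DEAD-box helicase of the DDX39 pair and adaptors such as ALYREF, is loaded on spliced mRNA. The adaptor then hands the mRNA to a heterodimer of an NXF receptor and its small NXT cofactor, which crosses the nuclear pore. *Nxf1* encodes the receptor used in most cells, while its X-linked paralogue *Nxf2* is known for its expression in male germ cells.

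The libraries held between 36757386 and 59101569 reads on genes. Values are given as CPM, the reads of a gene divided by the library's total on genes and brought to a common scale, after correction of the totals by TMM factors, which lay between 0.994 and 1.01. Markers of testis cell types fixed as lists were present in every library, with summed levels of at least 7307 CPM for 14 Sertoli cell genes and at least 2901 CPM for 25 genes of leptotene and zygotene spermatocytes, and no marker was at 0 in all mice. Wild type replicates A and B stood apart, with 451 and 469.6 CPM summed over 14 pachytene genes against 230.4 to 320.3 CPM in the other 6 mice. *Tra2b* itself averaged 164 ± 8.93 CPM in the wild type and 198 ± 8.49 CPM in the *Tra2b-cPEko* mice (SD, n = 4 each). Counts over the whole gene do not isolate the poison exon, so this does not check the labels.

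None of the 9 members tested was called by edgeR, that is, none reached an adjusted p under 0.05 in its quasi-likelihood test after Benjamini-Hochberg adjustment over every gene. Of all genes, 0.157% were called, 0.0262% with lower and 0.131% with higher values in *Tra2b-cPEko* testes. An unadjusted p under 0.05 was found for 5 of the 9, against 15.3% of all genes. Of these, *Nxf2*, *Alyref* and *Thoc1* had lower values in *Tra2b-cPEko* testes (7.07% of all genes were on this side) and *Nxt2* and *Thoc2* had higher values (8.22%). DESeq2, the tool of the study, called 1 member, *Nxf2*, where it called 2.79% of all genes. In all, 6 members were lower and 3 higher, with a median log2 fold change of -0.08 against -0.001 over all genes tested, and the mean of each of the 9 differed by no more than 14.0%. The plots of the members by mouse and of their intervals show these values.

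**Figure D1:**
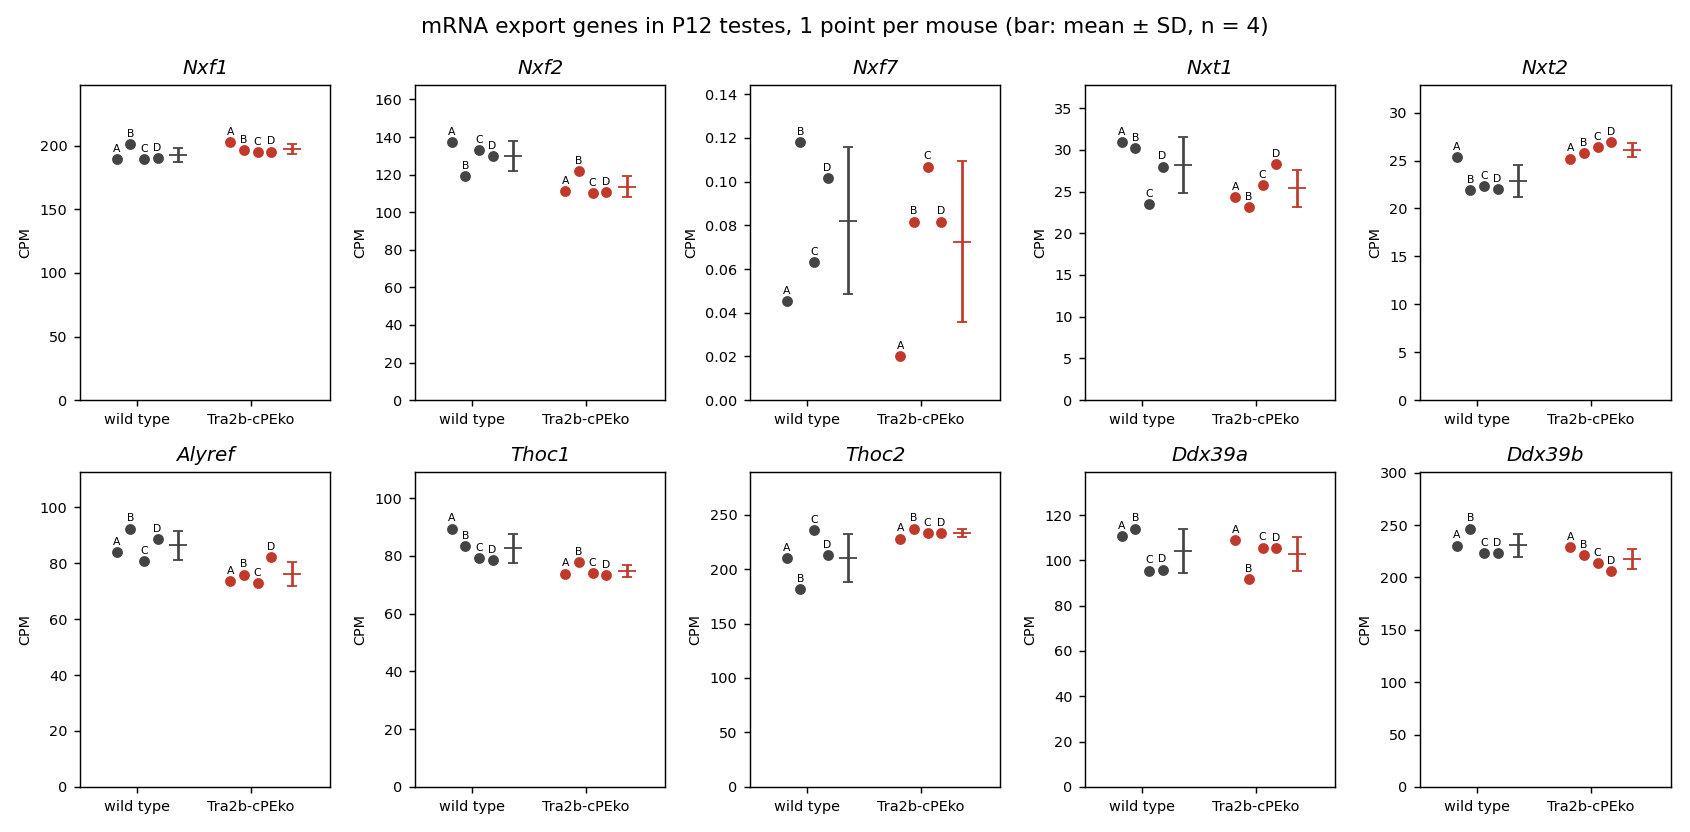
CPM of the 10 mRNA export genes (y axis, from 0) in wild type (dark) and *Tra2b-cPEko* (red) testes, 1 lettered point per mouse, with the mean ± SD of 4 mice as a bar. *Nxf2* lies between 119 and 137 CPM in wild type and between 110.2 and 122 CPM in *Tra2b-cPEko* mice, and *Nxf7* stays under 0.12 CPM in all 8.

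**Figure D2:**
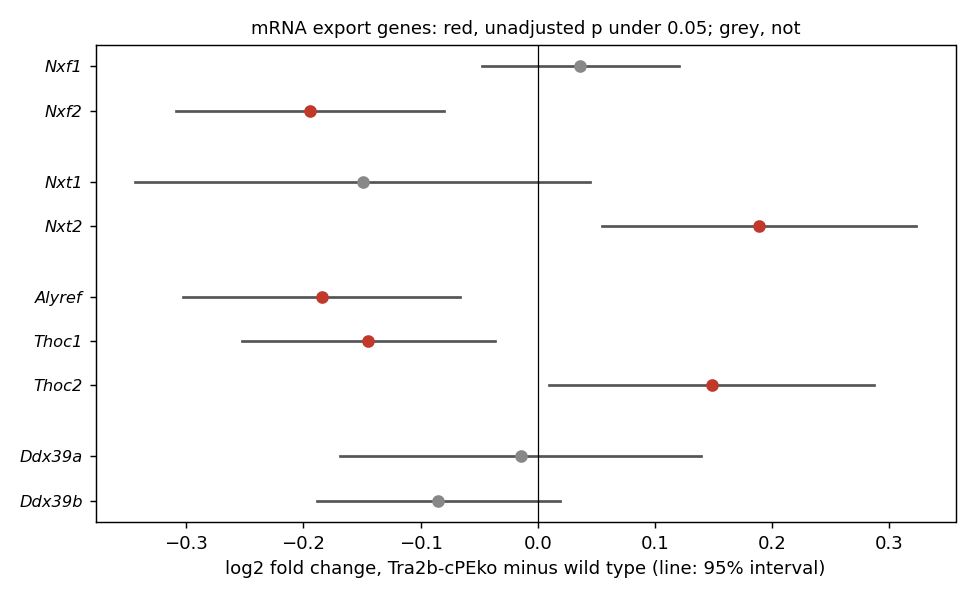
Log2 fold change of the 9 tested members, *Tra2b-cPEko* minus wild type (x axis), with 95% intervals from edgeR as lines, grouped by role. The 5 red points have an unadjusted p under 0.05, and their intervals do not reach 0.

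The receptors covered a wide range of levels. Levels of different genes can be compared only per length, so each was divided by the kilobases of exon annotated for the gene in GENCODE vM39. On this scale *Nxf2* was the highest member in wild type testes, at 50.3 ± 3.05 CPM per kilobase (SD, n = 4), above *Nxf1* at 38.4 ± 1.13 and *Ddx39b* at 38.3 ± 1.83, which did not differ beyond their spread. *Thoc2* (14.9 ± 1.56), *Alyref* (12.2 ± 0.727), *Ddx39a* (10.85 ± 1.02) and *Nxt1* (9.84 ± 1.18 CPM per kilobase) followed, and from each of these to the next the ranges over the 4 mice overlapped. *Thoc1* (7.36 ± 0.447) and *Nxt2* (7.16 ± 0.519) came next and did not differ beyond their spread. In *Tra2b-cPEko* testes *Nxf2* ran from 42.7 to 47.3 and *Nxf1* from 38.9 to 40.5 CPM per kilobase, and the order of the last pair was turned, with *Nxt2* at 8.16 ± 0.239 and *Thoc1* at 6.66 ± 0.191. These levels depend on the length used. Both lengths are from GENCODE vM39, while the paper names the NCBI annotation of GRCm39, so the exons counted may differ. With the longest transcript as the length, *Nxf2* again had the highest mean in wild type testes, with *Ddx39b* before *Nxf1* and *Thoc1* before *Nxt1*. On this length, however, the ranges of *Nxf2* and *Ddx39b* over the 4 wild type mice overlapped. In *Tra2b-cPEko* testes *Ddx39b* was at 47.9 and *Nxf2* at 47.1 CPM per kilobase.

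*Nxf2* lies on chromosome X of GRCm39 from 133845274 to 133865516 on the minus strand. Its level was 137, 119, 133 and 129.8 CPM in wild type mice A to D, from 5033 to 7661 reads. In *Tra2b-cPEko* mice A to D it was 111, 122, 110.2 and 111 CPM, from 4061 to 5553 reads. Wild type B was the lowest of its group and *Tra2b-cPEko* B the highest of its own, and these were the mice in which the genotypes overlapped. The log2 fold change was -0.19 (standard error 0.05, 95% interval -0.31 to -0.08), with a change of the mean of -12.6%, and edgeR gave it an unadjusted p of 0.00287 and an adjusted p of 0.136. DESeq2 gave a log2 fold change of -0.20 and an adjusted p of 0.0357. The paper, which used DESeq2 on the same mice, also reported *Nxf2* as lower, so this call is not an independent one. A two-sided exact permutation test over the 8 mice gave p = 0.0571, where 4 mice against 4 allow no p below 0.0286. In whole testes, fewer germ cells and less *Nxf2* mRNA in each of them cannot be told apart.

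Germ cell markers were therefore read in the same libraries, as the plot of marker sums shows. The 9 genes of differentiating spermatogonia were all lower in *Tra2b-cPEko* testes (median log2 fold change -0.20, 3 with an unadjusted p under 0.05, 1 called), and their sum was between 764 and 872 CPM against 915 and 959 CPM in wild type, without overlap. Of all genes, 7.07% were lower at this p and 0.0262% were called with lower values by edgeR. For the 25 leptotene and zygotene genes the median was -0.09, with sums of 3002 to 3125 against 2901 to 3822 CPM. For the pachytene list, where 12 of 14 genes could be tested, the median was -0.31, with sums of 254 to 320.3 against 230.4 to 469.6 CPM. The list for undifferentiated spermatogonia, with 12 genes, was at -0.01 in the median. With the mean of the leptotene and zygotene list as a covariate, the log2 fold change of *Nxf2* was -0.19 (adjusted p = 0.188 from edgeR), and without wild type A and B, an alternative chosen after seeing the data, it was -0.21 (adjusted p = 0.207). The part of the differentiating spermatogonia in the *Nxf2* value was not tested.

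**Figure D3:**
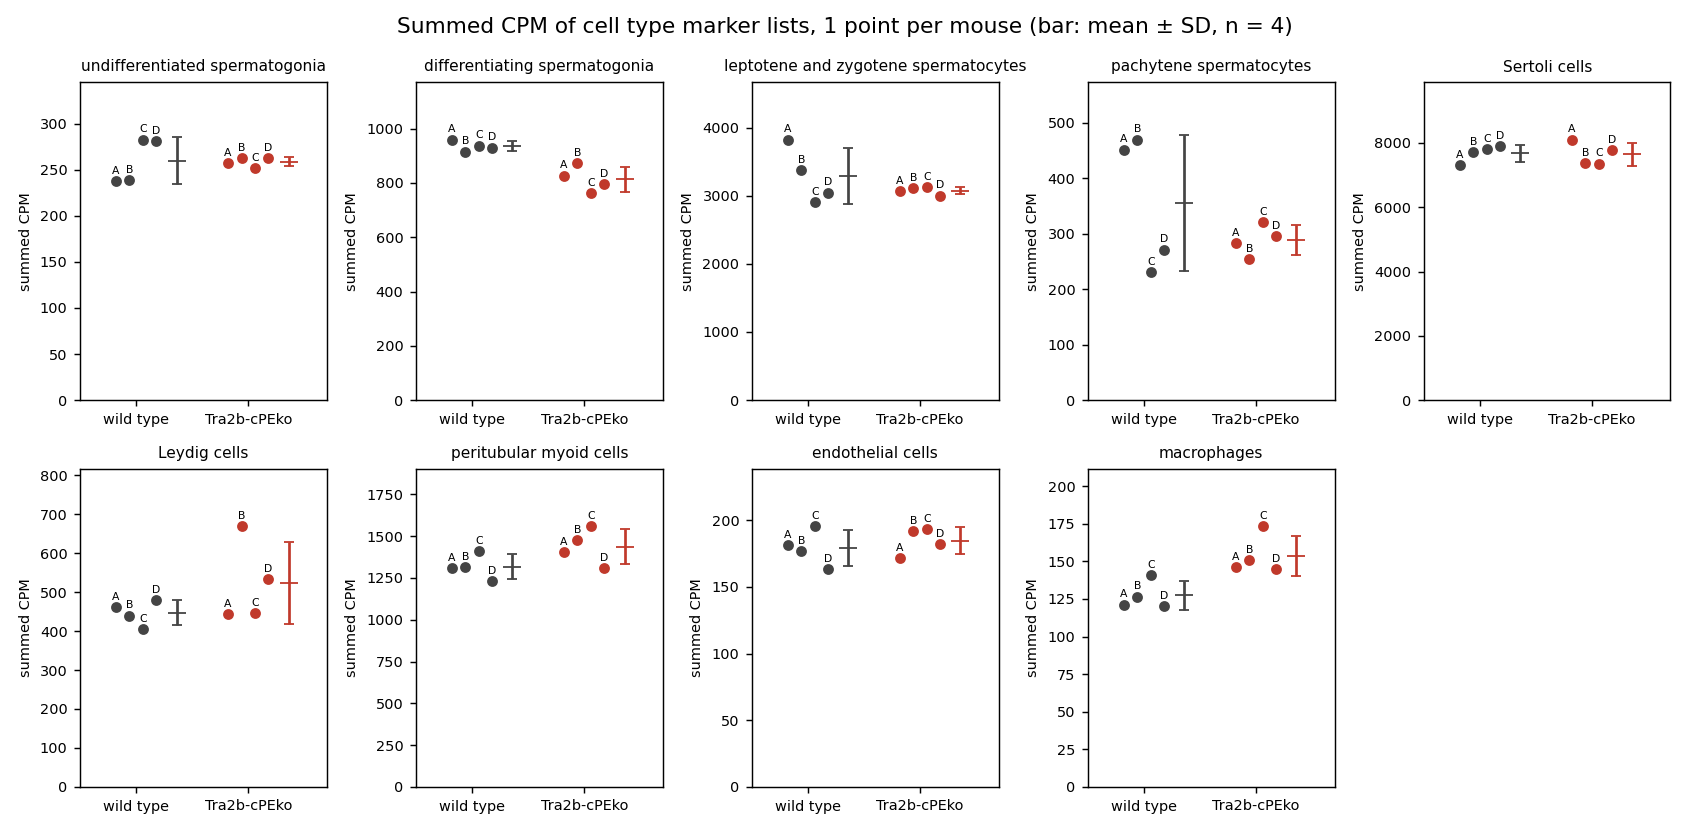
Summed CPM of 9 lists of cell type markers (y axes, from 0) in wild type (dark) and *Tra2b-cPEko* (red) testes, 1 lettered point per mouse, with the mean ± SD of 4 mice as a bar. Differentiating spermatogonia lie lower and macrophages higher in all 4 *Tra2b-cPEko* mice, and pachytene sums are highest in wild type A (451) and B (469.6).

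*Nxf1*, the general receptor on chromosome 19 from 8734088 to 8748289, differed little. It was between 189 and 201 CPM in wild type mice and between 195 and 203 CPM in *Tra2b-cPEko* mice, and the ranges overlapped. Its log2 fold change was 0.04 (standard error 0.04, 95% interval -0.05 to 0.12, adjusted p = 0.688 from edgeR), so that the interval leaves out any fall as large as the one estimated for *Nxf2*. *Nxf7*, an X-linked paralogue near *Nxf2* on the same strand (134480304 to 134499535), had 2, 5, 3 and 6 reads in wild type A to D and 1, 3, 5 and 3 reads in *Tra2b-cPEko* A to D. At that depth no difference between genotypes was detectable, and no fold change is given.

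The ratio of *Nxf2* to *Nxf1* reads within a library does not depend on the scaling between libraries. It was 0.725, 0.592, 0.703 and 0.682 in wild type A to D and 0.548, 0.621, 0.564 and 0.566 in *Tra2b-cPEko* A to D. The geometric mean of the ratio changed by -14.7% in *Tra2b-cPEko* against wild type testes, with overlap at replicate B of each genotype (two-sided exact permutation test, p = 0.0571). This was 1 of 4 ratios computed, and its p adjusted over the 4 was 0.0761 in the same exact test.

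The NXT cofactors, small proteins that pair with an NXF receptor and help it bind the pore, went in opposite directions. *Nxt2*, on chromosome X from 141009753 to 141022697, was at 25.4, 21.9, 22.3 and 22.0 CPM in wild type A to D and at 25.2, 25.8, 26.4 and 27.0 CPM in *Tra2b-cPEko* A to D. Wild type A was far above the other 3 wild type mice and alone reached the *Tra2b-cPEko* range. The log2 fold change was 0.19 (standard error 0.06, 95% interval 0.06 to 0.32), with a change of the mean of 14.0%, an unadjusted p of 0.00947 and an adjusted p of 0.196 from edgeR. *Nxt1*, on chromosome 2 from 148514521 to 148519364, was at 31.0, 30.2, 23.5 and 28.0 CPM in wild type and at 24.3, 23.1, 25.8 and 28.3 CPM in *Tra2b-cPEko* mice. Its groups overlapped, with a log2 fold change of -0.15 (standard error 0.09, 95% interval -0.34 to 0.04, adjusted p = 0.449 from edgeR). That value was -0.02 without wild type A and B, -0.07 with the leptotene and zygotene list as a covariate and -0.23 without wild type C (adjusted p = 0.120 from edgeR). In GENCODE vM39, *Nxt1* overlaps *Gm75182* on the other strand. Of the 100-base windows of the longest *Nxt1* transcript, 19.9% are also in *Gm75182*. Whether counting used the strand is not stated, so these reads may have been left out or shared, also in the ratio below.

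The ratio of *Nxt2* to *Nxt1* reads was 0.819, 0.725, 0.951 and 0.786 in wild type A to D and 1.04, 1.12, 1.02 and 0.953 in *Tra2b-cPEko* A to D. Every *Tra2b-cPEko* mouse had a higher ratio than every wild type mouse, although wild type C and *Tra2b-cPEko* D nearly met. The geometric mean was 1.26 times as high (two-sided exact permutation test, p = 0.0286, below which 4 mice against 4 cannot go, and 0.0572 adjusted over the 4 ratios).

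**Figure D4:**
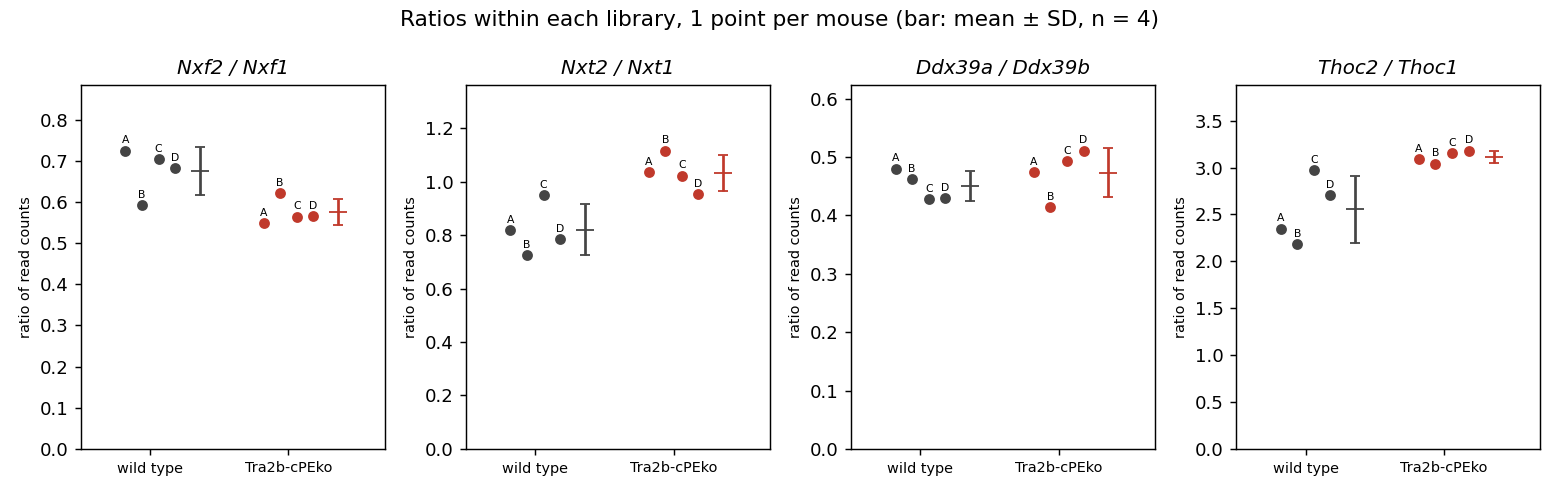
Ratio of read counts of paired members within each library (y axes, from 0), 1 lettered point per mouse, wild type dark and *Tra2b-cPEko* red, with the mean ± SD of 4 mice as a bar. *Nxt2* to *Nxt1* and *Thoc2* to *Thoc1* do not overlap between genotypes, while *Nxf2* to *Nxf1* and *Ddx39a* to *Ddx39b* do.

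Among the TREX members, *Alyref* encodes the adaptor that bridges mRNA and the NXF receptor, and lies on chromosome 11 from 120477966 to 120489344. Its level was 83.8, 92.4, 80.7 and 88.6 CPM in wild type A to D and 73.4, 75.9, 72.7 and 82.1 CPM in *Tra2b-cPEko* A to D. Only *Tra2b-cPEko* D reached the wild type range. The log2 fold change was -0.18 (standard error 0.05, 95% interval -0.30 to -0.07), with a change of the mean of -12.0%, an unadjusted p of 0.00516 and an adjusted p of 0.160 from edgeR, while DESeq2 gave an adjusted p of 0.0565. In GENCODE vM39, which may differ from the annotation used for counting, the gene overlaps *Anapc11* on the other strand. Of the 100-base windows of the longest *Alyref* transcript, 9.75% are also in *Anapc11*, which had a log2 fold change of -0.08 in the same fit. Whether counting used the strand is not stated, so reads of the overlap may have been left out or shared.

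*Thoc1* encodes a THO subunit that couples transcription to export. It was the only member whose groups did not overlap, where 8.54% of all genes did not, 4.18% with the *Tra2b-cPEko* mice lower and 4.36% with them higher. Its level was 89.5, 83.3, 79.2 and 78.6 CPM in wild type A to D and 73.9, 78.0, 73.9 and 73.3 CPM in *Tra2b-cPEko* A to D. Wild type D and *Tra2b-cPEko* B differed by less than 1 CPM. The log2 fold change was -0.14 (standard error 0.05, 95% interval -0.25 to -0.04, adjusted p = 0.214 from edgeR), and it was -0.08 without wild type A and B. In GENCODE vM39, which may differ from the annotation used for counting, *Thoc1* overlaps *Usp14* on the other strand. Of the 100-base windows of the longest *Thoc1* transcript, 53.8% are also in transcripts of other genes, all of them overlapping genes on the other strand. *Usp14* had a log2 fold change of -0.08.

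*Thoc2* encodes the large scaffold of the THO complex and lies on chromosome X from 40883868 to 41009551. It was at 210.3, 182, 236 and 213 CPM in wild type A to D and at 228, 237, 233 and 233 CPM in *Tra2b-cPEko* A to D. The *Tra2b-cPEko* mice lay within a narrow band that wild type C reached and wild type B was far below. The log2 fold change was 0.15 (standard error 0.06, 95% interval 0.01 to 0.29, adjusted p = 0.299 from edgeR), but it was 0.09 without wild type B, 0.06 without both A and B, and 0.21 without wild type C (adjusted p = 0.0786 from edgeR). The ratio of *Thoc2* to *Thoc1* reads was 2.35, 2.18, 2.97 and 2.71 in wild type and 3.09, 3.04, 3.15 and 3.18 in *Tra2b-cPEko* A to D. It was higher in all 4 *Tra2b-cPEko* mice, 1.23 times as high in the geometric mean (two-sided exact permutation test, p = 0.0286, and 0.0572 adjusted over the 4 ratios). Wild type A and B had the lowest ratios, and the difference without both was not computed.

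Log2 fold changes rose with annotated transcript length across genes above 10 CPM, and *Thoc2* has the longest transcript of the members at 8508 bases. Over 10594 genes above 10 CPM in wild type testes, split into 5 classes of nearly equal size, the median log2 fold change went from -0.05 in the class with the shortest transcripts (up to 2968 bases) to 0.02 in the class with the longest (from 6729 bases). Across these genes, which are not independent replicates, Spearman's rho of length and log2 fold change was 0.253. Taken relative to the median of its own length class, the log2 fold change was 0.13 for *Thoc2*, -0.13 for *Thoc1*, -0.15 for *Nxf2* and 0.24 for *Nxt2*, a transcript of 2554 bases. This comparison was chosen after seeing the data.

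The helicases of TREX, *Ddx39b* (UAP56) and its close paralogue *Ddx39a* (URH49), showed small differences. *Ddx39b*, on chromosome 17 from 35460454 to 35472683, ran from 223 to 247 CPM in wild type mice and from 206 to 229 CPM in *Tra2b-cPEko* mice, with a log2 fold change of -0.08 (95% interval -0.19 to 0.02, adjusted p = 0.420 from edgeR) that was -0.03 without wild type A and B. *Ddx39a*, on chromosome 8 from 84441791 to 84453521, had 95.4 to 114 CPM in wild type and 91.7 to 109 CPM in *Tra2b-cPEko* mice, a log2 fold change of -0.01 (95% interval -0.17 to 0.14) whose sign depended on the scaling, since it was 0.00401 with upper-quartile factors. The ratio of *Ddx39a* to *Ddx39b* reads ran from 0.428 to 0.480 in wild type mice and from 0.414 to 0.511 in *Tra2b-cPEko* mice (two-sided exact permutation test, p = 0.429, also after adjustment over the 4 ratios). No 100-base window of the longest transcript of a member was identical to a transcript of its paralogue.

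The rest of the export pathway was read from a list of 33 genes, of which 32 were in the tables and all 32 were tested. At the adjusted p threshold of 0.05, edgeR called none and DESeq2 called *Nxf3* and *Nup88*, where these tools called 0.157% and 2.79% of all genes. An unadjusted edgeR p under 0.05 was found for 1 gene on the higher side and 8 on the lower side, against 8.22% and 7.07% of all genes. The median log2 fold change was -0.06, with 22 genes lower and 10 higher, where all genes split into 9615 lower and 9489 higher. All 9 further TREX and adaptor genes had lower values in *Tra2b-cPEko* testes (median -0.08), 3 of them with an unadjusted p under 0.05. For the 4 cap-binding genes the median was -0.03, for the 6 genes of TREX-2, a complex at the pore's nuclear face, -0.06, and for the 11 pore docking and release genes -0.03.

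Within THO, *Thoc5* and *Thoc7* had lower values in *Tra2b-cPEko* mice, like *Thoc1*. *Thoc5* was at 48.6 ± 1.09 CPM in *Tra2b-cPEko* and 53.7 ± 2.76 CPM in wild type mice (SD, n = 4 each), and *Thoc7* at 33.4 ± 0.156 against 37.4 ± 2.76 CPM. Neither gene's groups overlapped, which held for 4 of the 32 other export genes, all lower, against 4.18% of all genes on this side. The log2 fold changes of *Thoc5* and *Thoc7* were -0.14 and -0.16 (adjusted p = 0.211 and 0.225 from edgeR). Without wild type A and B they were -0.08 and -0.07. *Ncbp2*, the cap-binding subunit of the nuclear cap-binding complex, had a log2 fold change of -0.13 (adjusted p = 0.221 from edgeR), and -0.08 without wild type A and B.

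*Nxf3*, a further X-linked NXF paralogue known from Sertoli cells, had the largest difference of the export genes. It was at 244, 277, 248 and 236 CPM in wild type A to D and at 350.1, 275, 409 and 339.7 CPM in *Tra2b-cPEko* A to D. *Tra2b-cPEko* B lay within the wild type range and the other 3 lay above it. The log2 fold change was 0.45 (standard error 0.11, 95% interval 0.21 to 0.70, adjusted p = 0.131 from edgeR), and DESeq2 gave an adjusted p of 0.00191. Without *Tra2b-cPEko* B edgeR gave 0.54 with an adjusted p of 0.0126. No other omission of a single mouse brought the adjusted p under 0.05. Without *Tra2b-cPEko* C the log2 fold change of *Nxf3* was 0.35 (adjusted p = 0.222 from edgeR). The 14 Sertoli cell markers had a median log2 fold change of -0.04 in the same mice, with sums of 7357 to 8102 against 7307 to 7899 CPM.

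At the pore, *Nup88*, a nucleoporin of the cytoplasmic face, was lower in *Tra2b-cPEko* mice without overlap, as were 4.18% of all genes. It was at 174, 170.3, 165 and 156 CPM in wild type A to D and at 143, 148, 146 and 150.1 CPM in *Tra2b-cPEko* A to D. The fit put it at a log2 fold change of -0.18 (standard error 0.04). The adjusted p was 0.105 in edgeR and 0.00593 in DESeq2. Without wild type A and B the log2 fold change of *Nup88* was -0.13 (adjusted p = 0.354 from edgeR). With the leptotene and zygotene list as a covariate it was -0.16. *Ddx25*, a testis helicase linked to mRNA export in later germ cells, was at 34.3 ± 1.45 against 40.3 ± 4.51 CPM (SD, n = 4 each), a log2 fold change of -0.23 (adjusted p = 0.189 from edgeR). It was -0.14 with the leptotene and zygotene list as a covariate and -0.09 without wild type A and B.

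**Figure D5:**
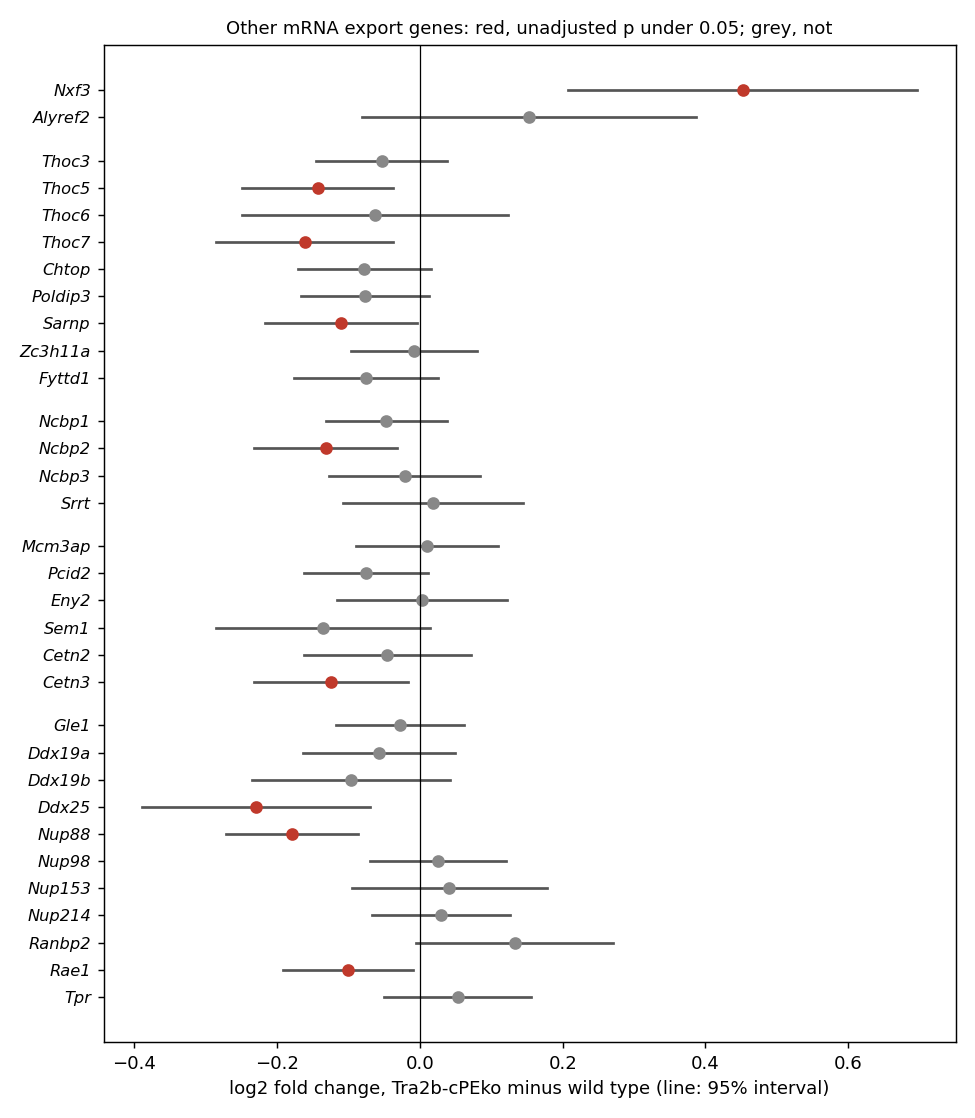
Log2 fold change of the 32 other mRNA export genes, *Tra2b-cPEko* minus wild type (x axis), with 95% intervals from edgeR as lines, in blocks for NXF and adaptor paralogues, TREX, cap-binding, TREX-2 and nuclear pore genes. The 9 red points have an unadjusted p under 0.05, with *Nxf3* at 0.45 the only one above 0.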

How the data were processed

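RNA of whole P12 testes from 4 wild type and 4 *Tra2b-cPEko* independent mice was sequenced from stranded mRNA libraries. The authors deposited raw read counts per gene symbol, 1 table per mouse. The submitters' processing notes name HISAT2 2.2.1 and HTSeq 2.0.2 with GRCm39, the paper's methods name Salmon, and whether reads were counted by strand is not given in the sources used here. The 5 summary lines, which held the reads not on genes, were left out, which left 66.4% to 69.0% of each table's total. No library was a copy of another (chi-square per degree of freedom at least 6.24 within a genotype).

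Counts were fitted on the whole table with edgeR 4.0.16 (R 4.3.3). Genes were kept by filterByExpr at a least count of 10 and a least total of 15, libraries were scaled by TMM, and genotype was tested by the robust quasi-likelihood method without further terms, with Benjamini-Hochberg adjustment over 19104 genes. Log2 fold changes and intervals come from this fit. A run on simulated counts checked its median estimate for a set change larger than that of any member, but not the intervals. Single values and ratios (prior count 0.5) were compared by two-sided exact permutation over 70 arrangements. Alternatives used DESeq2 1.42.0, limma 3.58.1 (voom), other factors, filters and covariates, and each mouse left out. Positions, lengths and overlaps come from GENCODE vM39 on GRCm39, while the paper's methods name the NCBI annotation of GRCm39. The genes named are the 10 members, *Tra2b*, the 6 pathway genes with the smallest p, and the 5 genes above 10 CPM closest to *Nxf2* in pattern (1 of them is not reported here), besides overlapping neighbours. The members and lists were chosen with earlier results of these data known.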

Additional observations from a re-analysis of the deposited data

Results flagged for a closer look

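In 26 groups of 4 mice (9 members and 4 ratios in 2 genotypes), 5 held a mouse whose gap to its nearest neighbour was too large a share of the group's range at Dixon's 95% level. Chance marks about 1 in 20 groups, which is 1.3 here. *Nxf1* stood out at 201.1 CPM in wild type B and at 203.1 CPM in *Tra2b-cPEko* A, and its log2 fold change of 0.04 was 0.06 without the former and 0.02 without the latter. *Nxf2* stood out at 122 CPM in *Tra2b-cPEko* B, and without that mouse its log2 fold change was -0.23 (adjusted p = 0.0844 from edgeR). Leaving out mice that did not stand out gave smaller *Nxf2* changes. The value was -0.17 without wild type A and -0.18 without *Tra2b-cPEko* C (adjusted p = 0.306 and 0.334 from edgeR). *Nxt2* stood out at 25.36 CPM in wild type A, and without that mouse its log2 fold change was 0.24 (adjusted p = 0.180 from edgeR). *Thoc1* stood out at 77.96 CPM in *Tra2b-cPEko* B, and without that mouse its log2 fold change was -0.17 (adjusted p = 0.1995 from edgeR).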

How the results depend on the processing

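The count of members called was 0 in each alternative except DESeq2, which called 1, and the count of other export genes called was 0 except with DESeq2 (2) and when *Tra2b-cPEko* B was left out (1). Over the fits that each omit a mouse, these counts ran from 0 to 0 and from 0 to 1. Every tested member except *Ddx39a* kept its direction in all alternatives. *Ddx39a* turned to 0.00401 with upper-quartile factors and 0.0505 with the leptotene and zygotene covariate, ranged from -0.0557 to 0.0343 with single mice left out (above 0 without wild type A, wild type B or *Tra2b-cPEko* B), and was 0.11 without wild type A and B together. The cause was not tested. With single mice left out, the log2 ratio of *Nxf2* to *Nxf1* differed by -0.29 to -0.19, *Nxt2* to *Nxt1* by 0.28 to 0.41, *Ddx39a* to *Ddx39b* by 0.03 to 0.13 and *Thoc2* to *Thoc1* by 0.23 to 0.37. With the longest transcript as the length, wild type levels were 53.9 (*Nxf2*), 43.5 (*Nxf1*), 50.8 (*Ddx39b*), 24.7 (*Thoc2*), 23.5 (*Alyref*), 19.4 (*Ddx39a*), 19.2 (*Thoc1*) and 8.96 (*Nxt2*) CPM per kilobase. The letters A to D share no stated batch, and the deviations of mice with the same letter correlated between -0.135 and 0.116. With the letter as a replicate block, 0 members were called and *Nxf2* had a log2 fold change of -0.19 (adjusted p = 0.175 from edgeR), while over all genes the block gave 67 calls against 30. Over all genes, DESeq2 called 507, upper-quartile factors 58, voom 11, no filter 123, a mean count of at least 50 gave 14 and no robust estimation 12. At an adjusted p under 0.1 the reported edgeR fit called no member, while *Nxf2* (DESeq2, no filter, or without *Tra2b-cPEko* B), *Alyref* (DESeq2, or without wild type C) and *Thoc2* (without wild type C) were under it. Depth limits only *Nxf7*, with 1 to 6 reads per library.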

Other observations

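Of the 10 members, 4 are X-linked (*Nxf2*, *Nxf7*, *Nxt2* and *Thoc2*), as is *Nxf3*. The tested X-linked genes did not share a direction, with *Nxf2* lower and *Nxt2*, *Thoc2* and *Nxf3* higher. Over the 702 X-linked genes tested, the median log2 fold change was 0.02, with 85 genes higher and 45 lower at an unadjusted p under 0.05, against a median of -0.01 over 16747 autosomal genes with 1234 higher and 1223 lower at the same p.

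Of 10849 genes above 10 CPM, those whose deviations over the 8 mice were closest to those of *Nxf2* included *Zfp930*, *Gdpd1*, *A430033K04Rik* and *Rpl22l1*. Their root mean square difference from *Nxf2* was between 0.0289 and 0.0363 on the log2 scale, where *Nxf2* itself deviated by 0.119 from its mean. Each of these 4 had a log2 fold change from -0.20 to -0.18, and none was called. This is a description of 8 libraries that share the genotype difference.

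Among somatic lists, all 8 macrophage markers were higher in *Tra2b-cPEko* testes (median log2 fold change 0.23, 5 with an unadjusted p under 0.05, none called by edgeR and 1 by DESeq2), with sums of 145 to 173 against 120.5 to 141 CPM. Of all genes, 8.22% were higher at this p, and edgeR called 0.157% and DESeq2 2.79%. Of the 8 Leydig cell markers, 6 were higher and 2 lower, with a median of 0.43. At an unadjusted p under 0.05, 2 were higher and 1 lower, against 8.22% and 7.07% of all genes, and edgeR called none and DESeq2 called 2. Their sums were 445 to 669 against 405 to 480.4 CPM, with *Tra2b-cPEko* B highest. The 7 peritubular myoid markers had a median of 0.10 and the 8 endothelial markers one of 0.05.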
